A study of Mus musculus with 6 samples.

Results

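The genes described here are 10 genes that mark or regulate fat cells, studied in the calf muscle of aged and young mice. They are the transcription factors Pparg and Cebpa, the secreted hormones Adipoq, Retn and Lep, the lipid handling genes Fabp4, Cidec and Ces1d, the receptor partner Mrap and the receptor Acvr1c. They were found as every probe set that the platform's gene table pairs with exactly 1 of these symbols, which gave 18 probe sets of 45037 that are no controls, and 10 genes of 18193 that the table names. The 10 genes were picked with the aged and young signals of these same arrays in view, so their changes, and the count of them that a fit over all probe sets called, are a description and no independent evidence. The samples were total RNA of gastrocnemius, the large calf muscle, from male mice of the strain that the labels write as C57B1/6. There were 3 aged arrays (replicates 51, 52 and 53) and 3 young arrays (replicates 1, 2 and 3). The labels name no treatment or genetic change for either group and no age in weeks or months. Nor do they tie arrays to separate animals, so standard errors and p-values measure only how far these samples spread, and that spread may be technical.

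A fat cell stores triglyceride in 1 large droplet and releases hormones that report on that store. PPARG, a nuclear receptor, and C/EBP-alpha, a basic leucine zipper factor, switch on each other's genes and most genes of the mature fat cell, among them those of adiponectin, the fatty acid carrier FABP4 and the droplet protein CIDEC. Skeletal muscle holds fat cells between its fibres and along its fascia, and their number is known to grow with age in several species. RNA of whole muscle mixes these cells with fibres, vessels and nerves, so more cells of a type and more RNA per cell cannot be told apart.

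Promoter sequence was at hand for 7 of the 10 genes in a table from RefSeq on build GRCm38.p6. The 250 bases before the start are shown for the 3 hormone genes, whose signals moved by unequal amounts, and for Cebpa, whose protein binds one of the motifs. The windows are chr16:23146286-23146535 for Adipoq, chr8:3655520-3655769 for Retn, chr6:29059971-29060220 for Lep and chr7:35119043-35119292 for Cebpa, all on the plus strand. Capitals mark matches, on either strand, to the C/EBP site TTGCNNAA, the nuclear receptor hexamer AGGTCA, the TATA box TATAAA and the CCAAT box CCAAT.
Adipoq: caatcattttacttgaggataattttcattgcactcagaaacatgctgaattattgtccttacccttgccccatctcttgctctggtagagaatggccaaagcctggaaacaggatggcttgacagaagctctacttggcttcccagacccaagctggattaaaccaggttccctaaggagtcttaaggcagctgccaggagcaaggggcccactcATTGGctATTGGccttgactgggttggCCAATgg
Retn: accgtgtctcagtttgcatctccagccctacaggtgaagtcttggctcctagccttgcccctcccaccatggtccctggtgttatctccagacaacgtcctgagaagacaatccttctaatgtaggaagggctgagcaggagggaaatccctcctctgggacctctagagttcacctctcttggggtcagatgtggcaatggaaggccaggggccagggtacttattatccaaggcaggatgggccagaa
Lep: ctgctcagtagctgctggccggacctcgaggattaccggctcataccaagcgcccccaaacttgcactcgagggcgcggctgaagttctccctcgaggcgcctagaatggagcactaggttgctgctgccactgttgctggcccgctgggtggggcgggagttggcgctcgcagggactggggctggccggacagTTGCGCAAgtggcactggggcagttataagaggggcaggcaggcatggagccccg
Cebpa: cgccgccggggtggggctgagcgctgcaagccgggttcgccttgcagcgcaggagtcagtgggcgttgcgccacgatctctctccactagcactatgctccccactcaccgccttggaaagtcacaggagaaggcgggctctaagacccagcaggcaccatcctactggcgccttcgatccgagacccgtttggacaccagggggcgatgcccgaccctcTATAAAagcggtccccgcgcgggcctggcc
The Adipoq window held 3 matches to the CCAAT box, and no 2 matches in these 4 windows overlapped. The Lep window held 1 match to the C/EBP site, TTGCGCAA, that began 55 bases before the start. The Cebpa window held 1 TATA box that began 30 bases before the start, and the Retn window held no match. Of 32851 promoter windows of this length 9.56% held the C/EBP site, 14.0% the hexamer, 12.4% the TATA box and 33.9% the CCAAT box. A match is a string of letters and was not tested as a binding site.

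Signals are the deposited linear intensities, and a change is the difference of mean log2 signal, aged minus young, with the standard error (SE) from limma and n = 3 arrays a group. Where a gene had several probe sets, the one with the highest mean signal over the 6 arrays stands for it. All 10 genes had a positive change, with a median of 1.94, beside a median of 0.0079 over the 22519 probe sets tested. The changes ran between 0.20 for Lep and 3.55 for Mrap, whose mean was 11.7-fold higher on the aged arrays. Of the 10 genes 6 passed an adjusted p of 0.05 in limma (Benjamini-Hochberg over all tested probe sets), each by 1 probe set of the 18, and no probe set was called lower. The share called higher was 0.311% of all tested probe sets and 0.391% of 11763 tested genes. Since the genes were chosen on this contrast, nothing is read from that count. On 9 of the 18 probe sets, and for 7 of the 10 genes, every aged array lay above every young array, as on 7.41% of tested probe sets and for 7.58% of tested genes. A filter on dim probe sets, set at a mean log2 signal of 9.08, was passed by 15 of the 18 probe sets and 9 of the 10 genes. Mrap passed it through the aged arrays, since its young mean was 8.90.

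The arrays differed in run conditions and in RNA quality. Fluidics station 1 served the young arrays and aged replicate 51, and station 2 served aged replicates 52 and 53. The run protocol differed along the same split, so station and protocol cannot be told apart. The log2 ratio of 3 prime to 5 prime signal of the Gapdh and beta-actin controls, which rises as RNA is degraded, was 2.11, 2.00 and 2.86 on aged replicates 51, 52 and 53, against 1.71, 1.77 and 1.75 on young replicates 1, 2 and 3. With this ratio as a covariate the median change of the 10 genes was 2.53, and 1 gene, Adipoq, was called. With the station as a covariate the median was 1.86 and 2 genes, Mrap and Ces1d, were called. That fit takes the difference within station 1, which is the value of aged replicate 51 given for each gene in the account of proportions. In both groups the signals of the fibre gene Acta1, skeletal muscle actin, were bright, at 236682 to 249865 on aged arrays and 353031 to 398528 on young arrays, which fits the muscle label.

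The 2 transcription factors differed. Cebpa had signals of 7328, 5725 and 5441 on aged replicates 51, 52 and 53, against 1262, 520 and 1673 on young replicates 1, 2 and 3. Every aged array was above every young one, and the change was 2.57 ± 0.44 (SE), a 5.92-fold higher mean. The aged arrays lay close together, and the spread was in the young group, where replicate 2 was lowest. Pparg, its partner, had signals of 372, 978 and 638 on the aged arrays, against 171, 687 and 624 on the young arrays. The groups overlapped and the signals were dim, below the filter on average, with a change of 0.55 ± 0.98. The table names 1 probe set for each factor, and for Pparg the error is too wide to say whether it moved with Cebpa.

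Among the hormone genes Adipoq and Retn were higher on every aged array and Lep was not. Adipoq encodes adiponectin, which fat cells secrete and which raises fatty acid oxidation in muscle through its receptors. Its signals were 16071, 22518 and 11655 on the aged arrays, against 4663, 3317 and 5389 on the young arrays. Even its lowest aged signal was above its highest young one, and the change was 1.89 ± 0.30, or 3.70-fold. Retn encodes resistin, a hormone that is made by fat cells in mice. Its signals were 13534, 28708 and 15194 on aged arrays, against 2322, 3546 and 5360 on young arrays. Replicate 52 was the highest by a wide margin, the groups did not overlap, and the change was 2.35 ± 0.36, or 5.11-fold. Lep encodes leptin, the satiety hormone that fat cells release in step with their fat store. Its signals were 2203, 3410 and 4418 on aged arrays, against 2354, 2488 and 3701 on young arrays. The lowest signal of all 6 was on an aged array, so the groups overlapped, and the change was 0.20 ± 0.36. Each of the hormone genes had a single probe set, and all 3 passed the filter.

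**Figure D1:**
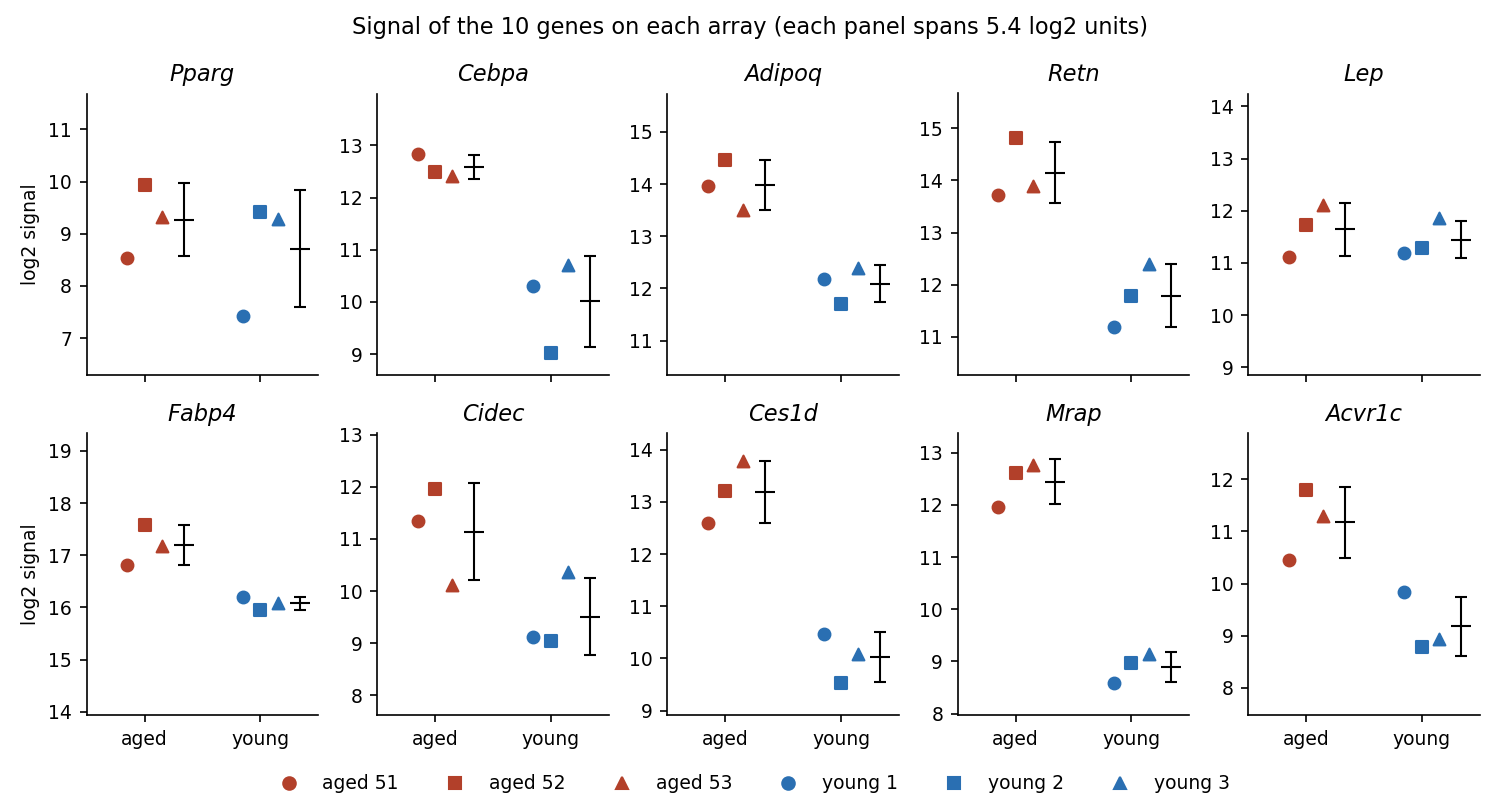
Log2 signal of the 10 genes on each array, for the probe set with the highest mean signal; points are arrays, aged left and young right, and black marks give the group mean with SD (n = 3 arrays). Aged and young points are apart for Cebpa, Adipoq, Retn, Fabp4, Ces1d, Mrap and Acvr1c and overlap for Pparg, Lep and Cidec.

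Of the genes that carry, store and release lipid, Ces1d had the greatest change on the brightest probe sets. Without probe sets whose ID ends in _s_at, _x_at or _a_at, Ces1d was at 1.58, below Cidec at 1.63, and neither Ces1d nor Fabp4 was called. The brightest probe sets of Ces1d and Fabp4 end in _a_at. Ces1d encodes a carboxylesterase that hydrolyses triglyceride in fat cells and liver. Its brightest probe set read 6184, 9499 and 14080 on aged replicates 51, 52 and 53, against 1417, 735 and 1093 on young replicates 1, 2 and 3. The aged signals were all far above the young ones, and the change was 3.17 ± 0.39, or 8.99-fold. Fabp4 encodes the fatty acid carrier of fat cells, which capillary endothelium makes as well. It read 115467, 196589 and 147843 on aged arrays, against 75001, 63548 and 69649 on young arrays. The groups did not overlap, although the change was the smallest among the 6 called genes, 1.11 ± 0.23, or 2.16-fold. Cidec encodes a protein that fuses lipid droplets into larger ones. It read 2593, 3964 and 1116 on aged arrays, against 557, 526 and 1313 on young arrays. Aged replicate 53 lay below young replicate 3, so the groups overlapped, and the change was 1.63 ± 0.60.

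The genes of membrane receptors and their partners had both the greatest change and one of the less certain ones. Mrap encodes a small membrane protein that carries the melanocortin 2 receptor to the cell surface, in the adrenal cortex and, in mice, in fat cells. It read 3973, 6263 and 6980 on aged arrays, against 383, 502 and 564 on young arrays. All young signals were near the filter value of 540 or below it, and the change was 3.55 ± 0.43. With a pseudocount of 219 added to each signal the change was 3.06. Acvr1c encodes ALK7, a type I receptor of the activin and TGF-beta family that is abundant in fat cells and restrains lipid breakdown there. It read 1392, 3549 and 2504 on aged arrays, against 912, 439 and 489 on young arrays. The groups did not overlap, yet the SE was wide, and the change was 1.99 ± 0.56.

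Genes that are multiplied by 1 common factor would show the same log2 rise on an array if their probe sets responded in proportion. The rises of the 10 genes were not alike. Probe sets of 1 gene were not alike either, with changes of 3.17, 1.42 and 1.58 for Ces1d. For Fabp4 they were 1.11, 0.96, 1.01 and -0.63. How much of the gaps between genes comes from the probe sets was not tested. A rise here is the log2 signal of an aged array minus the mean of the young arrays. On aged replicate 51 the rises ran between -0.34 for Lep and 3.06 for Mrap, with a median of 1.86 and an SD over genes of 1.18. On aged replicate 52 they ran between 0.29 for Lep and 3.72 for Mrap, with a median of 2.46 and an SD of 1.02. On aged replicate 53 they ran between 0.61 for Pparg and 3.87 for Mrap, with a median of 1.76 and an SD of 1.22. Mrap thus had the highest rise on each aged array, and the gap between the top and bottom gene was 3.26 to 3.43 log2 units. The mean rises of the 10 genes had an SD of 1.07, and the median SE of a single gene was 0.41 (0.23 to 0.98). With the probe sets of a gene averaged the SD was 0.85. The genes were chosen on this contrast and the SE leaves out the choice of probe set, so these values are a description.

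Some genes kept closer proportions than others. On aged replicate 51 the rise was 1.88 for Adipoq, 1.94 for Retn and 1.84 for Cidec, close to each other. On replicate 52 Cidec was at 2.45, close to Adipoq at 2.37, and Retn was higher at 3.02. On replicate 53 the same genes parted, with Retn at 2.10, Adipoq at 1.42 and Cidec at 0.62. Mrap exceeded Adipoq by 1.18, 1.35 and 2.46 log2 units on replicates 51, 52 and 53, and Ces1d exceeded it by 0.69, 0.82 and 2.34. Both gaps were widest on replicate 53, where Adipoq was lowest among the aged arrays. Lep, less Adipoq, was at -2.22, -2.08 and -0.75, and Fabp4 at -1.14, -0.86 and -0.32. Cebpa exceeded Adipoq by 0.95, 0.11 and 0.98. The order of replicates was the same for Retn and for Fabp4, which was at 0.74, 1.51 and 1.09. Acvr1c, at 1.26, 2.61 and 2.11, and Pparg, at -0.17, 1.23 and 0.61, had this order too.

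**Figure D2:**
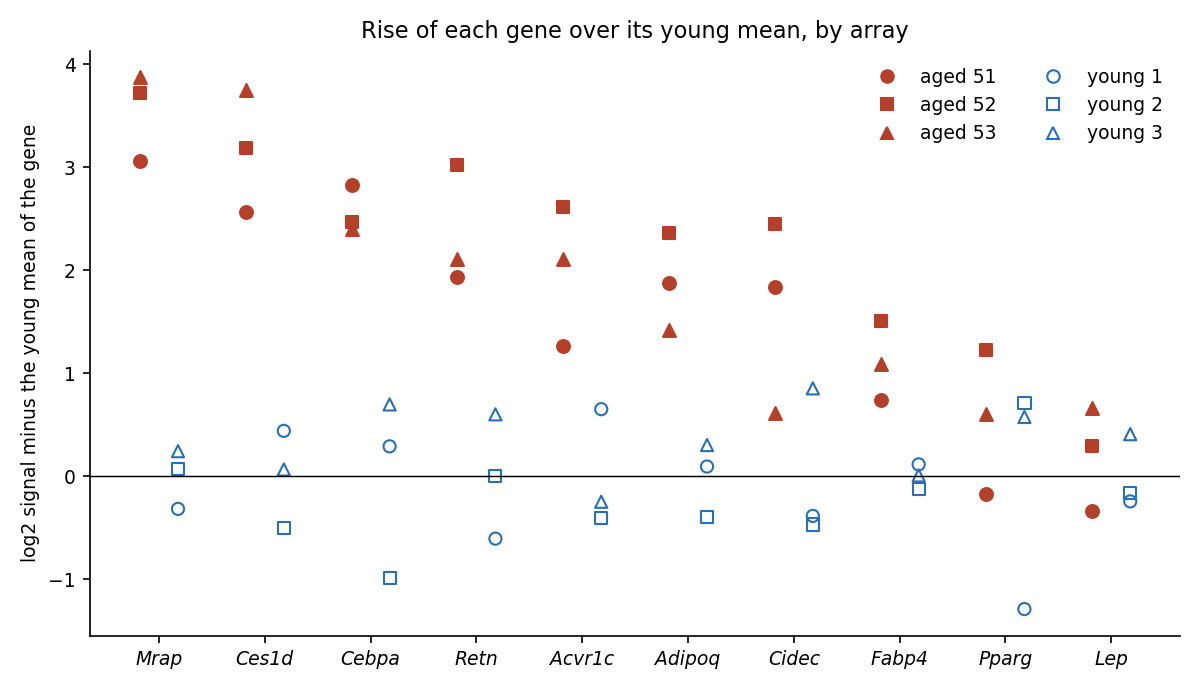
Log2 signal of each gene minus its mean over the young arrays, by array; filled symbols are aged arrays and open symbols young arrays, and genes are ordered by mean rise. Rises run between -0.34 (Lep, replicate 51) and 3.87 (Mrap, replicate 53), and no single height fits all genes of an aged array.

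The order of the aged arrays varied by gene. Replicate 52 was the highest aged array for 6 genes (Adipoq, Retn, Fabp4, Cidec, Pparg and Acvr1c), replicate 53 for 3 (Lep, Mrap and Ces1d) and replicate 51 for Cebpa alone. Replicate 51 was the lowest for 7 genes, and replicate 53 for Adipoq, Cidec and Cebpa. Within the young group replicate 3 was the highest array for 6 genes, namely Adipoq, Retn, Lep, Cidec, Cebpa and Mrap, and replicate 2 was the lowest for 6. A level for each gene plus 1 shift for each array left a residual SD of 0.75 log2 units. Around each gene's own group means, with no shift for arrays, it was 0.60. The second fit takes up each gene's difference between groups, on which the genes were chosen, so nothing is read from the gap. 

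A log2 rise also depends on how much of the young signal comes from other cells, such as endothelium for Fabp4, so the linear signal above the young mean was compared as well, for the 8 genes above that mean on all aged arrays. Lep and Pparg lay below it on replicate 51 and have no such factor. If 1 source added signal to each gene in a fixed ratio, this added signal would change by the same factor between aged arrays for every gene. For replicate 52 over replicate 51 the factor was 1.56 for Adipoq, 1.66 for Mrap, 1.65 for Ces1d and 1.76 for Cidec, which are close. It was 2.55 for Retn, 2.76 for Fabp4, 3.77 for Acvr1c and 0.74 for Cebpa. For replicate 53 over replicate 51 the factors lay further apart, at 0.18 for Cidec, 0.62 for Adipoq, 0.69 for Cebpa, 1.17 for Retn, 1.70 for Fabp4, 1.86 for Mrap, 2.43 for Acvr1c and 2.55 for Ces1d. Replicate 53, with less added Cidec, Adipoq and Cebpa signal than replicate 51 and more of the other 5, was also the array with the highest 3 prime to 5 prime ratio. Each factor rests on single arrays and has no error of its own. The part of added fat tissue, of RNA quality and of the station in these differences was not tested.

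Several genes were read by more than 1 probe set, and these did not always give the same size of change. Of the 18 probe sets 17 had a positive change. For Fabp4 the brightest pair of probe sets was at 1.11 and 0.96 with no overlap of groups. The third was at 1.01 ± 0.60 with overlap. The fourth was at -0.63 ± 0.55, with signals of 1086, 569 and 901 on aged arrays against 1043, 1476 and 1331 on young arrays. For Ces1d the other probe sets were at 1.42 ± 0.44, with no overlap, and 1.58 ± 0.82, with overlap, against 3.17 for the brightest. For Acvr1c they were at 0.98 ± 0.88 and, for a dim one, at 0.06 ± 1.33. The other Mrap probe set lay far below the filter, with signals of 136, 365 and 45 on aged arrays against 65, 55 and 101 on young arrays. When all probe sets of a gene were averaged the change was 2.21 for Mrap, 2.06 for Ces1d, 1.01 for Acvr1c and 0.61 for Fabp4, and 3 genes, Adipoq, Retn and Cebpa, were called.

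**Figure D3:**
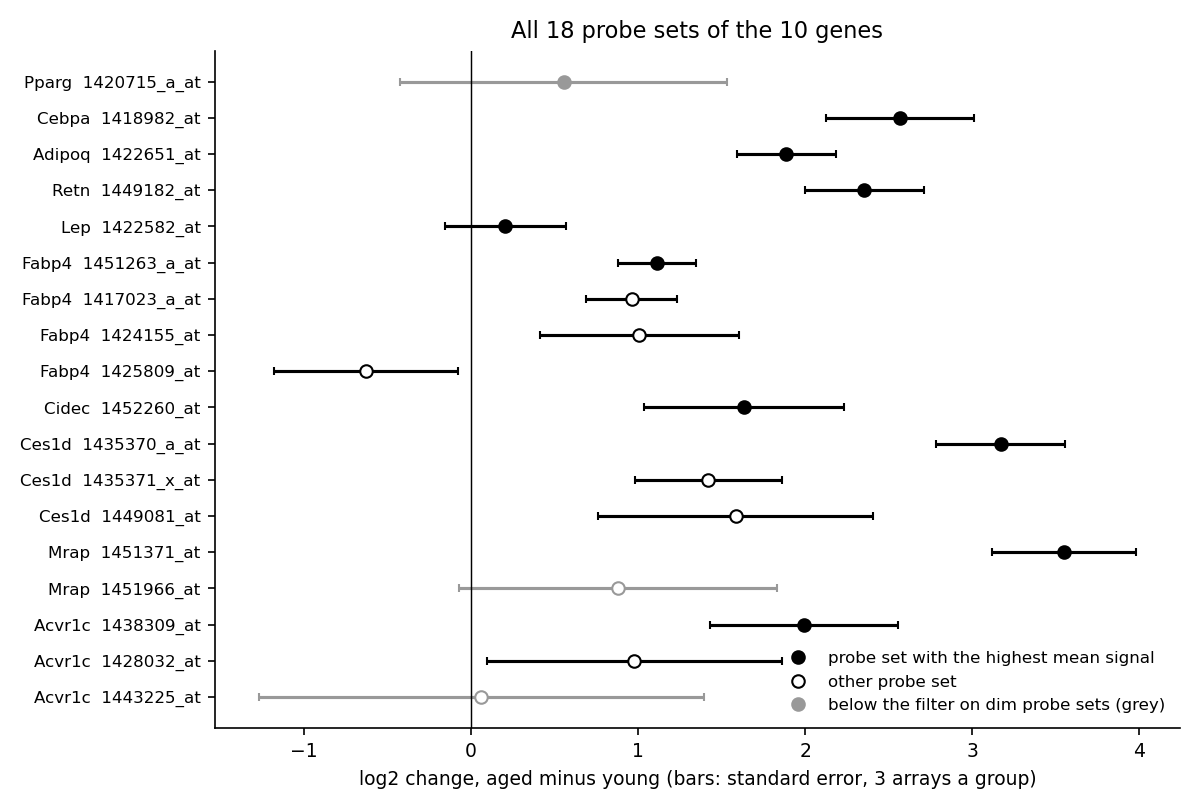
Log2 change, aged minus young, with limma's standard error (n = 3 arrays a group) for all 18 probe sets of the 10 genes; filled points are the probe sets with the highest mean signal and grey points lie below the filter on dim probe sets. Of the 18 changes 17 lie above 0, the exception being 1 Fabp4 probe set at -0.63.

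With 1 array left out the median of the 10 genes was between 1.67 and 2.13. Mrap, Ces1d and Retn were called each time. Adipoq was not called without young replicate 2 (1.69), and Cebpa was not called without aged replicate 52 (2.61). Fabp4 was not called without young replicate 1, 2 or 3 (1.17, 1.05 and 1.12) or without aged replicate 52 (0.92). Lep was between -0.02 and 0.48 in these fits, and Pparg between -0.09 and 0.92.

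Among other genes of fat cells 1 passed the test. Of 16 further fat cell markers 13 had a named probe set and 11 passed the filter. Of these 11, 1 rose, 0 fell and 10 did not pass, beside 0.391% called higher and 1.00% called lower over all tested genes, and the median change was 0.81. The gene that rose was Thrsp, a lipogenic regulator, with signals of 16146, 45010 and 26705 on aged arrays against 5210, 4836 and 8218 on young arrays. Its change was 2.18 ± 0.35 (limma adjusted p = 0.00724). Without young replicate 2 its adjusted p was 0.0536, and with the station as a covariate it was at 1.45 (adjusted p = 0.129). Adig, a small protein induced as fat cells form, was at 2.31 ± 1.07 (adjusted p = 0.504), with overlapping groups and young signals of 62, 784 and 317. It passed the filter through the aged arrays, since its young mean log2 signal was 7.96. Pck1, which makes glycerol for triglyceride in fat cells, was at 1.68 ± 0.98 (adjusted p = 0.596) on its brightest probe set and at -0.67 and -1.25 on the others, all with overlap. Agpat2, an enzyme of triglyceride synthesis, was at 1.23 ± 0.54 (adjusted p = 0.472) with every aged array above every young one. That held for 2 of the 11 markers, beside 7.58% of tested genes. Plin4, a droplet coat protein of fat and muscle, was at 0.25 ± 0.24 with overlapping groups, and the hormone-sensitive lipase gene Lipe was dim, with signals of 482, 635 and 368 on aged arrays against 694, 193 and 1294 on young arrays. Plin1, Cfd and Adrb3 were not analysed here.

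Of 16 measured genes of droplet coats, triglyceride synthesis and lipolysis 0 passed in limma, and 5 had an unadjusted p under 0.05. Over all 22519 tested probe sets 2262 had an unadjusted p under 0.05 in limma. The median change of the 16 genes was 0.61, and 10 were positive, beside 50.5% of tested probe sets. The triglyceride synthase Dgat2 was at 1.36 ± 0.36 (limma adjusted p = 0.132), the droplet coat gene Plin2 at 1.30 ± 0.39 (adjusted p = 0.207) and the lipodystrophy gene Bscl2, which encodes seipin, at 1.25 ± 0.34 (adjusted p = 0.154). On all 3, and on 5 of the 16 in all, every aged array lay above every young one, beside 7.58% of tested genes. The muscle droplet gene Plin5 was at 0.00 ± 0.25, with signals of 5957, 5441 and 5116 on aged arrays against 6299, 5196 and 5082 on young arrays. Of 16 other measured adipogenic regulators 0 passed, 2 had an unadjusted p under 0.05, and the median was 0.18. Srebf1, which drives lipid synthesis genes, was at 1.38 ± 0.38 (adjusted p = 0.157), and Klf4, an early factor of fat cell formation, was at -0.61 ± 0.26 (adjusted p = 0.462). Ebf1 and Cebpd, which act upstream of Cebpa and Pparg, were at 0.37 ± 0.30 and -0.03 ± 0.73 on their brightest probe sets. A second tested Cebpd probe set was at 1.06 ± 0.62 with overlapping groups.

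Of 7 measured genes of fatty acid uptake 1 rose and 1 fell. Vldlr, the receptor of very low density lipoprotein, rose by 1.37 ± 0.25 (limma adjusted p = 0.0197), and was not called without aged replicate 52 (adjusted p = 0.0926) or young replicate 2 or 3 (adjusted p 0.133 and 0.118). Fabp3, the fatty acid carrier of muscle fibres, fell to 12059, 8262 and 8126 on aged arrays, against 25687, 23935 and 20845 on young arrays. Its change of -1.33 ± 0.23 (adjusted p = 0.0138) ran opposite in sign to that of Fabp4, and the other Fabp3 probe set was at 0.21. Fabp3 missed the threshold in the fits without aged replicate 52 and without any 1 of the young arrays (adjusted p 0.0505 to 0.105). Gpihbp1, which holds lipoprotein lipase on capillaries, was at -1.62 ± 0.46 (adjusted p = 0.179), and the lipase Lpl itself at 0.40 ± 0.24 (adjusted p = 0.616). Of 13 measured receptors and mediators of the pathways of adiponectin, leptin, melanocortin and activin 0 passed in limma and 0 had an unadjusted p under 0.05, with a median of 0.44. Smad2, which carries activin signals to the nucleus, was at -1.94 ± 0.92 (adjusted p = 0.516) with overlapping groups. The adiponectin receptors were at 0.50 ± 0.28 for Adipor1, with no overlap, and 0.47 ± 0.29 for Adipor2, with overlap. Acvr2a, Tgfbr1 and Smad3, of the activin and TGF-beta pathway, were at 0.57, 0.54 and 0.55, all with aged arrays above young arrays. Of the 13 genes 4 had every aged array above every young one, beside 7.58% of tested genes. The melanocortin receptors Mc2r and Mc5r were at 0.44 ± 0.52 and 0.81 ± 0.65 with overlapping groups.

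**Figure D4:**
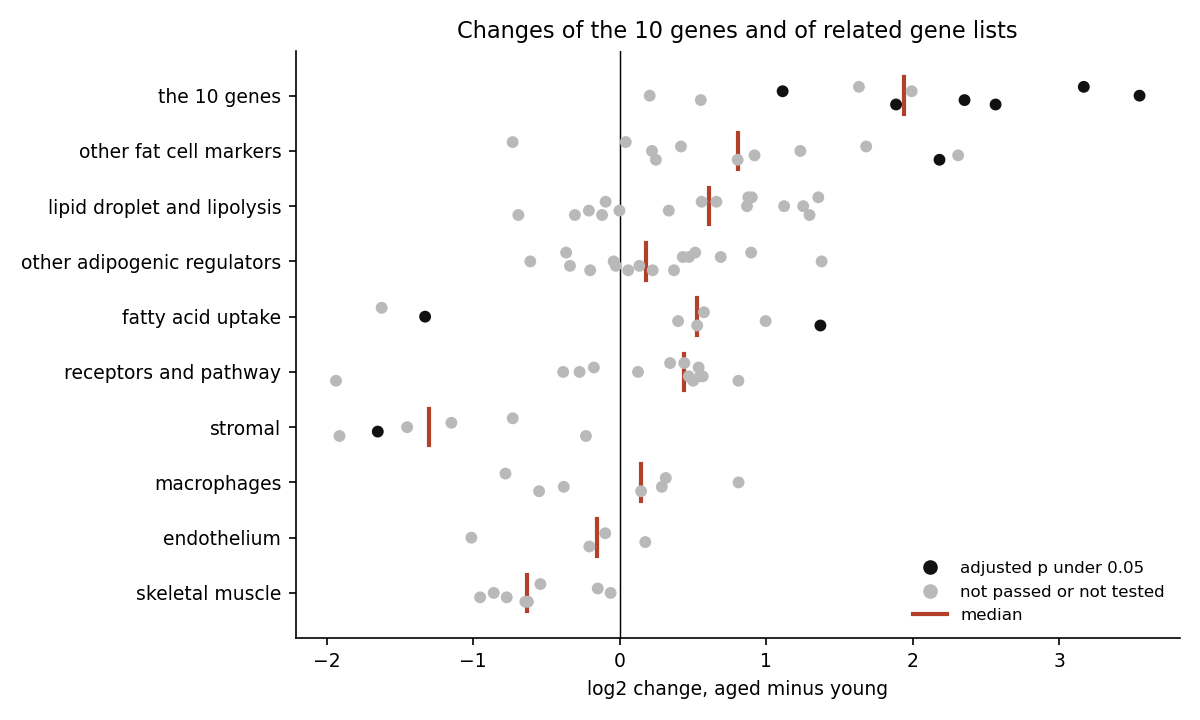
Log2 change, aged minus young, of each gene in 10 groups, with 1 point per gene, black where the adjusted p in limma was under 0.05, and a red line at the median. The median is 1.94 for the 10 genes, 0.81 for other fat cell markers, -1.30 for stromal markers and -0.64 for skeletal muscle markers. The 10 genes were chosen on this contrast, so their place above the other groups is no independent evidence.

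Relatives of the 10 genes in the same families were measured on their own probe sets. Of 9 that passed the filter 1, Fabp3, fell and none rose. Ces1f, a carboxylesterase of the same gene cluster as Ces1d, was at 3.06 ± 1.11 (limma adjusted p = 0.342), with signals of 1353, 2140 and 1331 on aged arrays against 166, 49 and 808 on young arrays. Its probe set and 1 of the Ces1d probe sets are of kinds that can bind transcripts of related genes, so signal of the 2 esterases may not be fully separate. Fabp5 was at 0.77 ± 0.37 (adjusted p = 0.515), Cidea at 1.12 ± 0.91 and Ppara at 1.96 ± 0.94 (adjusted p = 0.517), all with overlapping groups. Ces1f and Cidea passed the filter through the aged arrays, and the young mean log2 signal of Cidea was 8.70. Retnla, a relative of resistin made by macrophages, was at 1.26 ± 0.53 (adjusted p = 0.449), and aged replicate 51 alone stood out with 11622, against 4029 and 1955 on the other aged arrays and 1608 to 2044 on young arrays. The C/EBP genes Cebpb, Cebpd and Cebpg were at 0.23, -0.03 and 0.37, each with overlapping groups on the brightest probe set.

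Lists of markers of other cells had medians below that of the 10 genes. Since the 10 genes were chosen on this contrast, nothing is read from that order. All 6 measured stromal markers had a negative change, with a median of -1.30. Of these Cd34 fell (-1.65 ± 0.34, limma adjusted p = 0.0423) and 5 did not pass, among them Lum at -1.91 ± 0.54 and Dcn at -0.73 ± 0.20, matrix proteins of fibroblasts. A second Dcn probe set was at 1.60 ± 0.80 (adjusted p = 0.532), with every aged array above every young one. On 4 of the 6 every aged array lay below every young one, as for 9.63% of tested genes. Cd34 was called in 1 of the 6 fits that leave out an array (adjusted p 0.0109 to 0.232). Pdgfra was at -0.23 ± 0.31 with overlapping groups. The summed signal of the stromal list was 48943 to 61819 on aged arrays and 85547 to 97515 on young arrays. Most of that sum on every array was the signal of Dcn. Of 7 measured macrophage markers 0 passed and 0 had an unadjusted p under 0.05 (median 0.15), with sums of 72612 to 116843 on aged arrays and 67957 to 94327 on young arrays. Most of these sums was the signal of Csf1r. Of 4 measured endothelial markers 0 passed and 0 had an unadjusted p under 0.05 (median -0.15), with sums of 6141 to 11140 on aged arrays and 8122 to 10716 on young arrays. The 8 skeletal muscle markers all had a negative change (median -0.64), of which 0 passed. Of them 6 had an unadjusted p under 0.05 in limma, beside 2262 of the 22519 tested probe sets. The greatest changes were those of Pvalb at -0.95 ± 0.24 and Mb at -0.86 ± 0.22. Of these 8 genes 6 had every aged array below every young one. No marker of these lists was listed at 0. The part of each cell type in the signals of the 10 genes was not tested.

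The genes whose profile over the 6 arrays lay nearest to the median profile of the 10 were found among all other tested genes. Likeness was the root mean square distance of log2 signals, each gene centred on its own mean. The nearest were the kinase gene Pim1 at 0.15, the desmosome gene Pkp2 at 0.22, the endocytosis gene Epn1 at 0.23, Prxl2a at 0.25 and Pgd, of the pentose phosphate pathway, at 0.29. Thrsp at 0.29, Foxf1 at 0.30, the fatty acid elongase Elovl6 at 0.31, pyruvate carboxylase, Pcx, at 0.32 and the sterol regulator Insig1 at 0.32 completed the 10. Among the 10 fat cell genes themselves Adipoq lay nearest to the median profile, at 0.15, and Lep at 0.99 and Pparg at 1.02 lay farthest. Pim1 was higher in aged muscle by 1.80 and Elovl6 by 2.01, and these changes are part of what made them alike. Such a distance over 6 arrays mostly follows the difference between groups and gives no sign of shared control.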

How the data were processed

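Signals came from 6 Affymetrix Mouse430_2 arrays, 3 of aged and 3 of young gastrocnemius. The deposited values are linear intensities from MAS5, as the submitters' processing notes say without a version. Each array's mean, with 2% of probe sets trimmed at either end, was 1500, a scaling that assumes this mean is alike in all samples. Fluidics stations and run protocols came from the deposited run settings. Values were taken to log2, 64 control probe sets were left out, and 22519 probe sets with a mean of at least 9.08, the median over probe sets, were tested. The 2 groups were compared in R 4.3.3 with limma 3.58.1 (lmFit and eBayes with trend, two-sided, Benjamini-Hochberg adjustment). For probe sets below the filter, the SE came from a fit with no filter. The step was tested on simulated data. The number of arrays limits the precision.

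The platform's table named 34945 probe sets by 1 symbol. The 10 genes and the 12 comparison lists were chosen with earlier results of these data known. The lists hold 149 genes with the 10, of which 133 have a named probe set. Named from each list are all called genes. The other genes named from the lists include some but not all of the greatest changes, and were chosen after their values were seen. From the families of the 10 genes all tested relatives are named. Alternatives were quantile normalization, median centring, other filters, a pseudocount, covariates, array weights, eBayes without trend, other probe set choices and each array left out. Median centring moved the median change of all tested probe sets to -0.11. Figures were drawn with matplotlib 3.10.9 in Python 3.11.15.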

Additional observations from a re-analysis of the deposited data

How the results depend on the processing

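Quantile normalization, median centring, a pseudocount, array weights and both other filters left 5 or 6 of the 10 fat cell genes called and their median change between 1.75 and 2.02. The count of genes called among the 10 was 2 with the fluidics station as a covariate, 1 with the 3 prime to 5 prime ratio as a covariate, 1 without the trend, 1 within the first station alone and 3 with the probe sets of a gene averaged. It was 4 of 9 without probe sets ending in _s_at, _x_at or _a_at, where Fabp4 (1.01) and Ces1d (1.58) were not called and Pparg had no value. Fits that leave out 1 array gave 4 to 6, and their medians ran between 1.67 and 2.13. The median was 2.53 with the ratio as a covariate. Of the other fat cell markers 0 were called with the station or the ratio as a covariate, without the trend, with probe sets averaged and within the first station alone, and 0 or 1 with 1 array left out. The median change of these markers, 0.81 in the main fit, was 0.42 with no filter on dim probe sets. It was 0.30 with the station and 0.91 with the ratio as a covariate, and 0.40 to 1.19 with 1 array left out. Thrsp, Vldlr, Fabp3 and Cd34 kept their direction but did not pass in limma with the station (adjusted p 0.129 to 0.279) or the ratio (adjusted p 0.106 to 0.331) as a covariate. Nor did they pass in limma without the trend (adjusted p 0.303 to 0.428). With probe sets averaged only Cd34 passed (limma adjusted p = 0.0421), and Fabp3 was at -0.56. Vldlr, called on a probe set ending in _x_at, also missed with median centring (limma adjusted p = 0.171). Over all tested probe sets 237 were called, 138 with the ratio as a covariate, 21 without the trend, 365 within the first station alone and 124 to 342 with 1 array left out. The fit within the first station was added after seeing the data and sets 1 aged array against 3 young ones, whose spread it assumes. The SD of the mean rise over genes was 0.85 with probe sets averaged, 0.95 without Lep and 0.96 without Mrap, against 1.07. No called gene among the 10 changed sign under any alternative run, and the causes of these shifts were not tested. No paired analysis was possible because the replicate numbers of the groups are not shared. Dim probe sets, such as that of Pparg, limit what can be said of them.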

Other observations

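Genes that mark brown fat gave no clear shift. Of 5 measured 0 passed in limma and 0 had an unadjusted p under 0.05, and the median change was 0.08. Ucp1, which uncouples respiration in brown fat, was dim, with signals of 834, 577 and 299 on aged arrays against 843, 114 and 104 on young arrays. Elovl3 was at 0.53 ± 0.64 and Prdm16 at 0.08 ± 0.50, both with overlapping groups, and the deiodinase gene Dio2 was at -1.01 ± 0.61. A Prdm16 probe set below the filter was at 2.49 ± 1.00, with every aged array above every young one. Further Prdm16 probe sets were at 0.73 and -0.37, and those of Dio2 at -0.10 and -0.21. Of the blood markers 0 passed the filter on dim probe sets. The summed signal of the 2 that had a probe set was 355 to 1817 on aged arrays and 257 to 926 on young arrays.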
